A study of Mus musculus with 32 samples.

Results

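The data described here are the 16 arrays of ventricles in hypertrophy, of 32 arrays in the series, and how they differ among themselves. They were chosen by their titles alone. The mice carried a cardiac specific AT1 transgene, an abbreviation that the labels do not spell out, and their ventricles were sampled during cardiac hypertrophy. Total RNA was measured on 2 types of Affymetrix array with different probe sets, called the first and the second array type, with 8 hypertrophy arrays on each, numbered 1 to 8. The other groups, used here for reference, were 5 wild type ventricles and 3 ventricles of AT1 transgenic mice in cardiac failure per array type. The labels name neither the promoter of the transgene nor the age, sex or strain of the mice. Whether each array stands for its own animal is not stated either, and the p-values below therefore describe the scatter of these samples, which may be partly technical.

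Nppa and Nppb encode the atrial and B-type natriuretic peptides, hormones that promote salt and water excretion and widen vessels. The atria make most of the atrial peptide in the healthy adult. The ventricle makes little, but returns to this fetal pattern under load, which is why Nppa is the classical transcript marker of hypertrophy. Hypertrophy also engages fetal contractile genes such as Acta1 and Myh7, and fibroblasts then deposit collagens, fibronectin and matricellular proteins such as periostin between the muscle cells. The ratio of a transcript's 5′ to its 3′ signal is a common measure of RNA integrity on these arrays: labelling starts at the poly(A) tail, so broken or poorly copied RNA loses 5′ signal first.

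Nppa is the gene against which the other transcripts are set below, and Nppb is its neighbour, with 13516 bases between the annotated genes on mouse chromosome 4. Their upstream windows are shown because the region before the start of each gene carries the control elements of this gene pair that have been studied most. Both sequences are from RefSeq (build GRCm38.p6, plus strand) and hold the 250 bases before an annotated start, at chr4:148000472-148000721 for Nppa and chr4:147985650-147985899 for Nppb. The Nppa window ends before the start of the annotated gene used for the distance (148000722). The Nppb window runs past that gene's start (147985786), so 2 different starts of Nppb are in use here. Capitals mark GATAA on either strand, the core of the motif that GATA factors bind, and TATAAA, the TATA box.
Nppa: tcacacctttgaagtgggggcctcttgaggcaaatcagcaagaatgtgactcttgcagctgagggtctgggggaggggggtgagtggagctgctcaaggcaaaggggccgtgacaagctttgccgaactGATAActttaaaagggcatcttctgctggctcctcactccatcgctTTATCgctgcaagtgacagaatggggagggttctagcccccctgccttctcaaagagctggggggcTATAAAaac
Nppb: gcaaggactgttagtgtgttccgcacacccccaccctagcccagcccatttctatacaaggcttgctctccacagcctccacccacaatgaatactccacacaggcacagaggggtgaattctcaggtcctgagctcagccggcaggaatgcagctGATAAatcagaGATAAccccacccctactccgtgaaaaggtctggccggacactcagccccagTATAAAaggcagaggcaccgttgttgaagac
Each window holds 2 matches to GATAA (or TTATC, its reverse complement) and 1 match to TATAAA. Of 32851 such windows in RefSeq, 22.6% hold a GATAA match and 12.4% a TATAAA match on either strand. The letters are a description of the windows and carry no measurement of binding.

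Markers of heart muscle were bright on all arrays of the first type. Myh6, the alpha myosin heavy chain of adult heart muscle, had deposited signals of 7255 to 9799 over the 8 arrays of the first type, and Atp2a2, the calcium pump of the sarcoplasmic reticulum, from 4954 to 5976. Sln, an atrial regulator of that pump, was not above the array median and in 6 of 8 arrays lay below 39.5, the floor to which lower signals were raised before taking log2. The atrial markers Myl4, Myl7 and Dkk3 were above the array median, and the share of atrial tissue was not tested. Hypertrophy arrays were similar in brightness, with first-type medians of 91.5 (replicate 1) to 121 (replicate 7) and second-type medians of 69.1 to 80.3. Xist, which silences an X chromosome in females, was brighter than Eif2s3y, a Y-linked gene, in replicates 1 to 4 and dimmer in replicates 5 to 8. Neither was above the array median, and the part of sex in the variation was not tested.

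In the Gapdh control, replicates 6 and 7 lay below the other arrays on both types. On the first type the 5′ to 3′ ratio of Gapdh was 1.09, 0.917, 0.961, 0.868, 0.886, 0.468, 0.0487 and 1.04 in replicates 1 to 8. The low value of replicate 7 came from its 5′ probe set, at 247, while its 3′ probe set read 5075. The 5 wild type arrays lay between 0.806 and 0.955. The Actb ratio, of cytoplasmic actin, was graded rather than split: 0.992, 0.870, 0.848, 0.599, 0.624, 0.563, 0.357 and 0.756 in the same order. Replicate 7 was again the lowest, but replicate 6, at 0.563, had company among wild type arrays, whose lowest was 0.545 and highest 0.752. Replicates 6 and 7 of the second type read 0.379 and 0.0414 for Gapdh and 0.667 and 0.494 for Actb. Several results that rest on these arrays are also given without them.

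**Figure D1:**
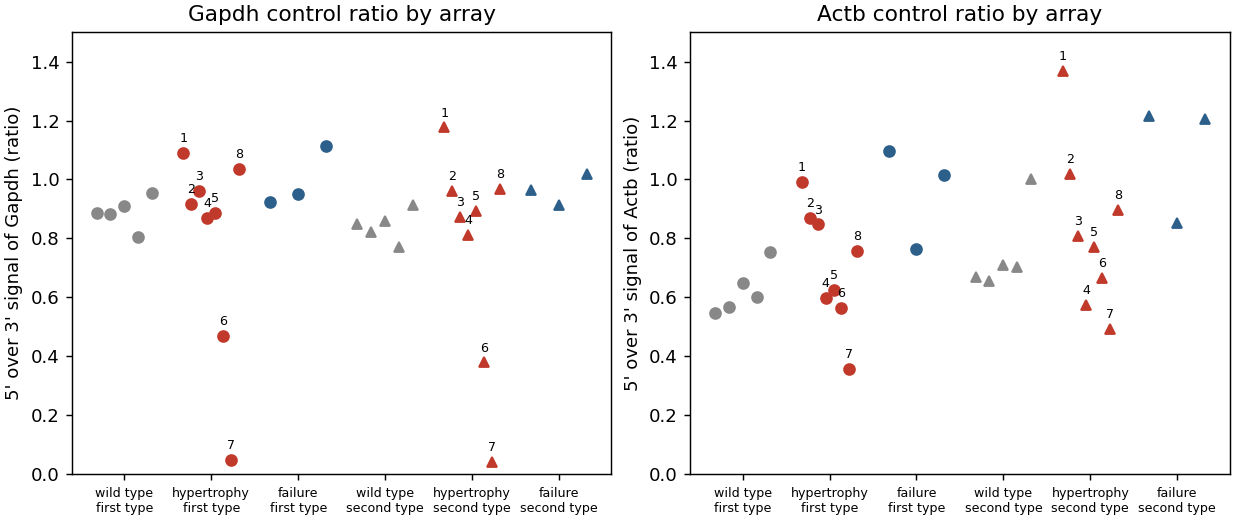
Ratio of 5′ to 3′ control signal (y axis, no unit) of Gapdh (left) and Actb (right) for every array, by group and array type (circles for the first type, triangles for the second); numbers are the hypertrophy replicates. Hypertrophy replicates 6 and 7 lie below all other arrays for Gapdh (0.468 and 0.0487 on the first type), whereas the Actb ratios of the hypertrophy arrays are spread between 0.357 and 0.992 on the first type and between 0.494 and 1.37 on the second.

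Hypertrophic ventricles varied more from one another than wild type ventricles did on the second array type, and on the first the difference had the same sign. Variation was measured for probe sets with a mean log2 signal in hypertrophy above the array median, 6136 of 12422 non-control probe sets (first type) and 6134 of 12411 (second type). The median SD of log2 signal was 0.249 over the 8 hypertrophy arrays and 0.160 over the 5 wild type arrays of the first type. The second type gave 0.236 and 0.170, and the 3 failure arrays 0.153 and 0.164 by type. With 1 value per array, the root mean square deviation from the group mean in log2, hypertrophy stood at 0.310 ± 0.0981 (SD, n = 8) against 0.209 ± 0.0378 (SD, n = 5) on the first type. This difference of 0.101 just missed the threshold (exact permutation test, two-sided, p = 0.0536, adjusted p = 0.0536 over the 2 types). On the second type the values were 0.321 ± 0.0572 (SD, n = 8) and 0.229 ± 0.0251 (SD, n = 5), and all 8 hypertrophy arrays lay above the highest wild type array (difference 0.0918, exact permutation p = 0.00466, adjusted p = 0.00932). Without replicates 6 and 7 the differences were 0.0764 (exact permutation adjusted p = 0.0476) and 0.0707 (adjusted p = 0.00866), so both differences passed the threshold then. Over all arrays of the first type 4 of 8 hypertrophy arrays exceeded the highest wild type array. The farthest from the group mean was replicate 1, at 0.478, followed by replicate 7 at 0.420. Probe set by probe set, a limma test of the deviations called 0 of 6136 (0%, first type) and 1 of 6134 (0.0163%, second type), with 480 (7.82%) and 529 (8.62%) at an unadjusted p under 0.05. On simulated data this test recovered 0% of 4-fold differences in SD, and its counts say little.

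An SD above 0.5 (log2) was reached by 538 probe sets of the first type (8.77%) and 475 of the second (7.74%), and an SD above 1 by 20 and 45. Among the 100 probe sets of largest SD, a single array held over 50% of the squared deviations in 56 (first type) and 51 (second type), against 31.6% and 28.9% of all kept probe sets. Over the 100 probe sets of the first type, the array farthest from the median of the 8 was replicate 1 in 34, replicate 7 in 28 and replicate 6 in 17, near the shares over all kept probe sets (28.8%, 21.1% and 13.3%). Because the SD chose these genes, their values are a description.

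The largest SD on the first type belonged to Cfb, complement factor B of the alternative complement pathway (1.55). Its signals in replicates 1 to 8 were 135, 578, 371, 99.9, 37.9, 1, 54.1 and 372. Replicates 2, 3 and 8 lay within or just above the wild type range of 280 to 568, and the other 5 lay below it. Another Cfb probe set above the array median had an SD of 0.13, so the probe sets disagree.

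Myl4, the atrial essential myosin light chain that the ventricle expresses in the fetus, had an SD of 1.42, with 39.2, 98.5, 396, 61.2, 76.0, 114, 670 and 276. Replicate 7 was highest, followed by 3 and 8, and the range was 17.0-fold with replicate 1 at the floor. A dimmer Myl4 probe set had its 3 highest signals in the same arrays, at 281 in replicate 7, 196 in replicate 3 and 158 in replicate 8. Myl7, the atrial regulatory light chain, read 117, 213, 251, 106, 98.2, 133, 338 and 244, again with replicates 7, 3 and 8 highest. Wild type arrays varied in both genes too (SD 0.73 for Myl4 and 0.58 for Myl7). Of 7 atrial markers on the arrays, 3 were above the array median (Myl4, Myl7 and Dkk3). Whether more atrial cells or more atrial transcript per cell lay behind a value cannot be told apart in bulk tissue, here and in all results that follow.

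The size of the SD often belonged to a probe set and not to its gene. Of the 30 genes named for their SD (15 per array type), 13 had another probe set above the array median. These 18 probe sets had SDs between 0.13 and 0.49, with a median of 0.26, close to that of all probe sets. Col18a1, the collagen that releases endostatin, had 1.14 on one probe set and 0.17 on another, and Dclk1, a microtubule-binding kinase, 1.87 against 0.21 to 0.35. Since the named probe sets were picked for a large SD, a lower SD elsewhere in the gene is partly built in.

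Several probe sets of large SD owed it to 1 array. Nrep, a regulator of fibroblast differentiation, was at 1, the lowest deposited value, in replicate 6 and between 295 and 549 in the others, and its SD fell from 1.24 to 0.30 without that array. Proc, the gene of the anticoagulant protein C, read 36.6 in replicate 6 and 268 to 538 elsewhere. Vpreb3, a pre-B cell receptor component, owed it to more than 1 array. It was at 1 in replicate 6 but at 1366 in replicate 1, above the wild type maximum of 564, and its SD was 0.84 to 1.58 without 1 array. Bcl11b, a T cell transcription factor measured by the second type, was at 1 in replicate 5 and between 265 and 380 elsewhere. Gpc1, a heparan sulfate proteoglycan of the cell surface, was at 1 in replicate 6 and between 231 and 482 elsewhere. Among the 100 probe sets of largest SD, 8 (first type) and 24 (second type) had an array at 1.

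Others were low in replicates 6 and 7 together. Dlgap3, a scaffold protein of synapses on the second type, was at 1 in both, against 265 to 2149 in the other 6 arrays, and had the largest SD of the kept probe sets (2.54). Another Dlgap3 probe set had 0.42. Tns1, a focal adhesion protein, read 869, 1518, 1518, 716, 753, 220, 114 and 1413 (SD 1.37, against 0.32 on its other probe set). Xirp2, an actin-binding protein of the intercalated disc, read 290, 629, 479, 219, 192, 137, 44.4 and 404 (SD 1.21, against 0.48 on its other probe set). Replicates 1, 2, 3 and 8 exceeded the wild type maximum of 233 for Xirp2, and replicates 6 and 7 lay below the wild type minimum of 167. On the first type Twf2, an actin-monomer binding protein, read 65.5 and 4.31 in replicates 6 and 7 and 239 to 454 elsewhere. Slc25a5, an ADP/ATP carrier of the inner mitochondrial membrane, read 414 and 140 there and 634 to 1503 elsewhere (SD 1.06, against 0.30 and 0.49 on other probe sets). Without replicates 6 and 7 the SDs of these probe sets were 1.26 (Dlgap3), 0.52 (Tns1), 0.67 (Xirp2), 0.44 (Twf2) and 0.44 (Slc25a5). Tns1, Xirp2 and Slc25a5 were called for the Gapdh ratio, as described further on, whereas Twf2 (limma adjusted p = 0.0809) and Dlgap3 (limma adjusted p = 0.112) were not.

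**Figure D2:**
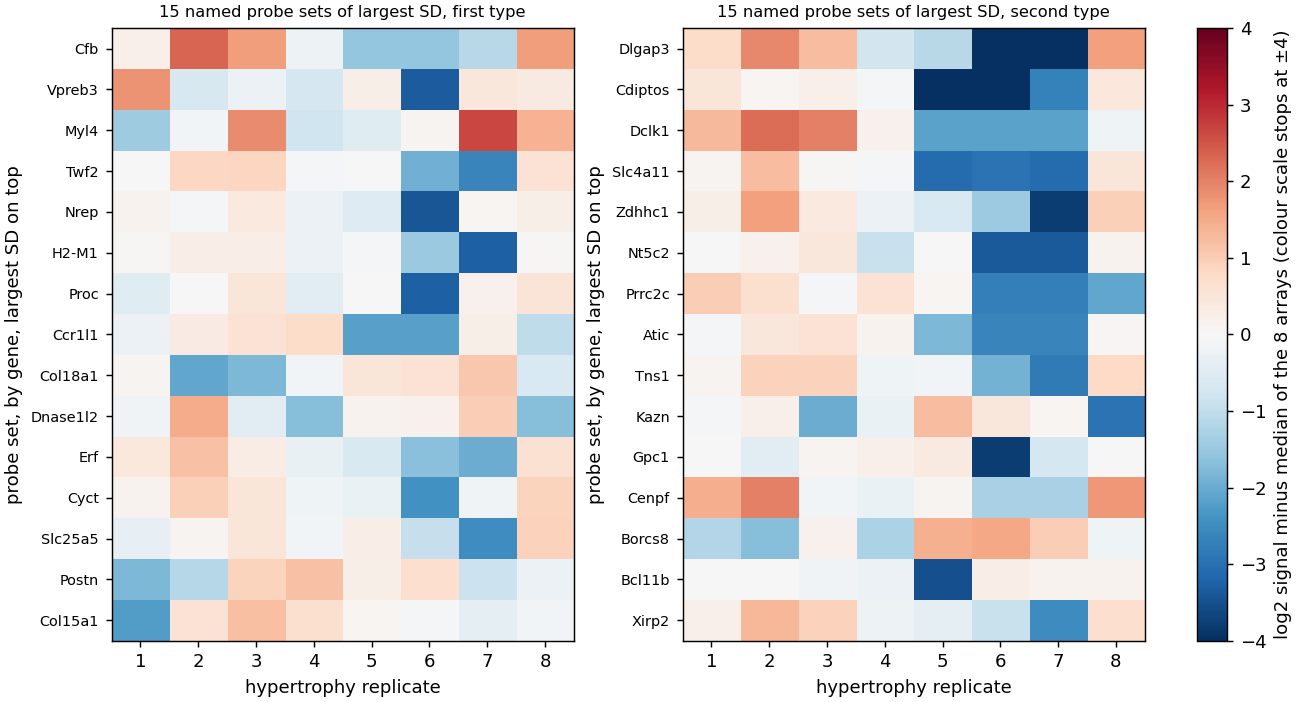
Log2 signal minus the median of the 8 hypertrophy arrays (colour, log2, scale ending at ±4) for the 15 named probe sets of largest SD on the first (left) and second (right) array type; columns are replicates 1 to 8. Many rows are lowest in replicates 6 or 7, such as Twf2 and Tns1, whereas Myl4 is highest in replicate 7 and Postn in replicates 3 and 4.

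Contractile genes differed widely in how much they varied. Atp2a2 had an SD of 0.08, Myh6 of 0.15 and Myh7, the beta myosin heavy chain, of 0.20, while other probe sets of Atp2a2 (second type) and Myh7 had 0.38 and 0.27. The first of these Myh7 probe sets read 5594 to 8633, close to Myh6, and whether it measures Myh7 alone was not tested. Acta1, the skeletal actin gene of fetal heart, had an SD of 0.88 and signals of 1740, 4501, 5055, 2861, 1595, 1007, 1201 and 1342. Replicates 2, 3 and 4 lay well above the wild type maximum of 1694, replicate 1 just above it, and the other 4 inside the wild type range. Ankrd1, a stress-responsive protein of the sarcomere and nucleus, read 2311 in replicate 1 and 3408 to 5718 in the others (SD 0.44). Agtr1a, the angiotensin type 1a receptor gene, ranged from 174 to 305 on the second type (SD 0.26).

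By gene list, the atrial list had the highest median SD (0.67 over 3 genes), then the fetal and hypertrophy genes (0.47 over 15), heat shock genes (0.41 over 12) and extracellular matrix genes (0.38 over 35). An SD above 0.5 was reached by 6 of the 15 fetal and hypertrophy genes, 3 of 12 heat shock genes and 11 of 35 matrix genes. Over all kept probe sets the share was 8.77% (first type) and 7.74% (second type). Skeletal muscle markers (0.23 over 9 genes), adult cardiomyocyte markers (0.23 over 18) and clock genes (0.24 over 14) lay near or below the medians over all probe sets. The blood list had 5 measured genes, and its haemoglobin gene Hba-a1 was lowest in replicate 2, at 1846, and highest in replicate 8, at 7586.

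As deposited, most lists were lowest in replicate 1. Of 23 lists with at least 5 genes on the first type, the mean log2 level was lowest in replicate 1 for 17 and highest in replicate 7 for 9. For heat shock genes replicate 1 lay 0.79 (log2) below the mean of the 8 arrays, and Hspa5, the chaperone of the endoplasmic reticulum, read 136 there against 240 to 514 elsewhere. For matrix genes it lay 0.58 below, and for cytosolic ribosomal protein genes 0.46 below. Replicate 1 also had the lowest array median, and scaling the arrays to a common median left 7 of 23 lists lowest in replicate 1 and 9 lowest in replicate 6. Replicate 7 was then highest for 3 lists and replicate 2 for 10. The values of replicate 1 after that scaling included heat shock genes at -0.54 and ribosomal genes at -0.21. Macrophage and leukocyte genes were at 0.017 there as deposited and 0.27 after that scaling.

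Nppa itself differed 6.17-fold among the hypertrophic ventricles. Its signals in replicates 1 to 8 were 842, 646, 3982, 3800, 1933, 1528, 872 and 1331, an SD of 0.98 in log2. Replicates 3 and 4 were high, 5 and 6 intermediate, and 1, 2 and 7 low. The wild type arrays covered 929 to 2688 (SD 0.74), so that 3 hypertrophy arrays lay below all wild type arrays, 2 above them and 3 among them. The 3 failure arrays lay between 3475 and 4420.

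No correlation of Nppa with an array measure passed the threshold. Across the 8 arrays of the first type, its log2 signal and the log2 Gapdh ratio had a Pearson r of 0.30 (Spearman rho -0.17, exact permutation p = 0.544, adjusted p = 0.814 over a family of 17 correlations). Without replicates 6 and 7, the arrays farthest from the median ratio, r was -0.45. For the Actb ratio r was -0.0096 (rho -0.31, exact permutation p = 0.983, adjusted p = 0.992). For the array median r was 0.50 (rho 0.52, exact permutation p = 0.203, adjusted p = 0.493), and 0.90 without replicates 1 and 7. The Gapdh ratio took 8.93% of the variance of Nppa and the Actb ratio 0.0092%.

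Genes that varied together with Nppa were sought by regressing each probe set on log2 Nppa over the 8 arrays with limma. No slope passed the threshold of an adjusted p under 0.05 on either type (0 of 6135, or 0%, and 0 of 6134, or 0%). At an unadjusted limma p under 0.05 there were 247 (4.03%, first type) and 172 (2.8%, second type), fewer than the 307 that chance gives on each. Of the 247, 199 slopes were positive (3.24%) and 48 negative (0.782%). Without replicates 6 and 7 the first type had 742 at that level, and with the Gapdh ratio in the model 700, again with 0 called. On simulated data with the real arrays' spread, 97.5% of slopes of 1 and 66.5% of slopes of 0.5 were recovered on the first type. The simulated noise was independent between probe sets and 200 slopes were planted, unlike in the real arrays. These shares therefore do not tell how many real slopes went uncalled. The genes below had the smallest p-values and are given as the closest followers of Nppa, not as calls.

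Postn, the matricellular protein periostin made by activated fibroblasts, had the smallest limma p-value of the slopes on Nppa. Its signals were 33.5, 62.1, 253, 304, 160, 215, 74.8 and 116 in replicates 1 to 8, high in replicates 3 and 4 and low in 1, 2 and 7, as for Nppa. The slope was 0.97 ± 0.16 (SE, log2 Postn per log2 Nppa, limma adjusted p = 0.528). It was 1.01 with the Gapdh ratio in the model, 0.97 with the Actb ratio and 0.99 without replicates 6 and 7. The control ratios took 2.70% (Gapdh) and 4.88% (Actb) of the variance of Postn, and Nppa 81.3%.

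Gpx3, the secreted glutathione peroxidase, read 666, 817, 1889, 1525, 1452, 1050, 858 and 1128, with a slope of 0.49 ± 0.08 (limma adjusted p = 0.528). Serpinf1, the secreted anti-angiogenic factor PEDF, read 65.1, 106, 207, 179, 152, 143, 76.2 and 122, with a slope of 0.52 ± 0.11. A second, brighter Serpinf1 probe set had a slope of -0.03 and ranged from 330 to 417, and the 2 probe sets of this gene therefore disagree. Col14a1, a collagen that decorates fibrils, had a narrow range of 90.7 to 148 and a slope of 0.28 ± 0.06, against 0.07 on its second-type probe set. Ly6g6d, Setd3, R3hcc1 and Fam83h followed with slopes of 0.36 to 0.44, though another R3hcc1 probe set had 0.02. Setd3 encodes a methyltransferase of actin histidine.

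The 8 smallest p-values of the opposite sign had slopes from -0.51 to -0.18. Cd74, the invariant chain of antigen presentation, read 282, 531, 209, 114, 217, 210, 222 and 373, a slope of -0.51 ± 0.15. It was highest in replicate 2, which had the least Nppa, and lowest in replicate 4. Timp2, an inhibitor of matrix metalloproteinases, ranged from 231 to 416 with a slope of -0.28 ± 0.08. Mpc1, a subunit of the mitochondrial pyruvate carrier, ranged from 163 to 251 with a slope of -0.21 ± 0.06, against 0.03 on its second-type probe set. B3galnt2, a glycosyltransferase that acts on dystroglycan, had a slope of -0.24 ± 0.06. Ighm, the heavy chain of immunoglobulin M and a member of the leukocyte list, had a slope of -0.53 ± 0.17. Ighm owed it to replicate 3 (119, against 362 to 642 elsewhere), and 2 other Ighm probe sets had slopes of -0.11 and 0.07. Cd74 and Ighm do not stand for the macrophage and leukocyte list, in which 10 of 17 slopes were positive. The median slope of that list was 0.028, and 66.3% of all first-type probe sets had a positive slope.

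The wild type arrays, which had no part in choosing these genes, gave slopes on Nppa of their own. All 8 genes named for a positive slope also had a positive slope over the 5 wild type arrays, where 59.4% of all tested probe sets did. Gpx3 had 0.53 ± 0.12 there, Postn 0.47 ± 0.17, Setd3 0.39 ± 0.10 and Serpinf1 0.29 ± 0.10. Of the 8 named for a negative slope, 4 were negative and 4 positive in wild type, and Cd74 turned from -0.51 to 0.32. No wild type slope was called (0 of 6135 in limma, 292 at an unadjusted p under 0.05).

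**Figure D3:**
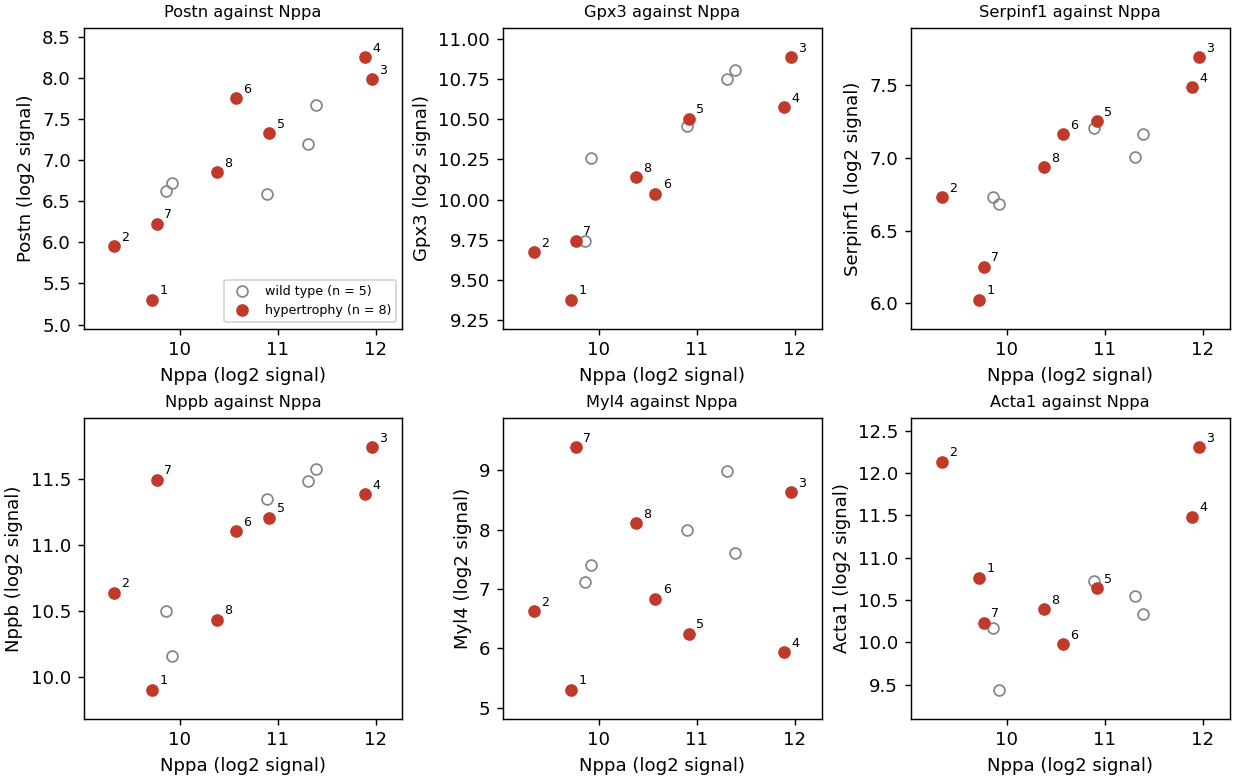
Log2 signal of 6 genes (y axes) against log2 signal of Nppa (x axes) on the first array type; filled red points are the 8 hypertrophy arrays with their replicate numbers and open grey points the 5 wild type arrays. Postn, Gpx3 and Serpinf1 are higher where Nppa is higher across the hypertrophy arrays (slopes 0.97, 0.49 and 0.52), whereas the points of Myl4 and Acta1 are scattered (slopes 0.06 and 0.27).

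Nppb read 958, 1593, 3419, 2673, 2363, 2203, 2882 and 1382. It shared its lowest value (replicate 1) and its highest (replicate 3) with arrays low and high in Nppa, but replicate 7, low in Nppa, was the second highest for Nppb. The slope was 0.40 ± 0.16 in hypertrophy, not called by limma, and 0.83 ± 0.12 in wild type, and the difference between these slopes was not tested. These are the neighbouring genes whose windows are printed above. In the fetal and hypertrophy list Fhl1, a LIM protein of the sarcomere, had 0.50 ± 0.20 (0.13 on another probe set), Rcan1, the calcineurin regulator, 0.48 and Enah, an actin regulator, 0.43. The slopes were 0.27 ± 0.28 for Acta1, 0.26 ± 0.13 for Ankrd1, -0.04 ± 0.09 for Myh7, -0.02 ± 0.08 for Myh6 and 0.05 ± 0.06 for Atp2a2. The slope of Acta1 was -0.05 without replicate 3 and 0.69 without replicate 2. In the fetal and hypertrophy list 13 of 15 slopes were positive and 4 of 15 had an unadjusted limma p under 0.05, with none called. Of these 15 genes, 12 were measured by the first type. Among all probe sets 66.3% (first type) and 52.0% (second type) of slopes were positive, so most of a list would be positive without any link to its function. The shares with an unadjusted limma p under 0.05 were 4.03% (first type) and 2.8% (second type).

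The order of the atrial light chains matched that of Nppa in some arrays and not in others. Slopes were 0.06 ± 0.47 for Myl4 and -0.18 ± 0.22 for Myl7, and replicate 4, with Nppa at 3800, had Myl4 at 61.2 and Myl7 at 106, near their lowest. Replicate 7, with Nppa at 872, had the highest of both, and replicate 3, with the most Nppa, the second highest (396 for Myl4 and 251 for Myl7). In wild type the slopes were 0.69 ± 0.26 for Myl4 and 0.63 ± 0.19 for Myl7.

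Extracellular matrix genes as a list leaned towards Nppa. On the first type 28 of 33 matrix genes had a positive slope, against 66.3% of all probe sets tested, and the median slope was 0.13 against 0.037. An unadjusted limma p under 0.05 was reached by 12 of 33, 11 of them positive and Timp2 negative, against 4.03% of all probe sets, and none was called. Among the fibrillar collagens, Col3a1 read 109, 233, 552, 398, 166, 176, 101 and 342, with a slope of 0.65 ± 0.21. Col1a1 read 115, 216, 380, 299, 170, 197, 126 and 182, with a slope of 0.46 ± 0.13. Both were high in replicates 3 and 4 and lowest in replicates 1 and 7.

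Small proteoglycans and matricellular proteins had slopes of the same sign. Lum, the keratan sulfate proteoglycan lumican, read 74.7, 146, 301, 338, 210, 248, 183 and 152, with a slope of 0.56 ± 0.15. Sparc, a collagen-binding matricellular protein, read 97.9, 168, 415, 344, 328, 297, 266 and 202, with a slope of 0.54 ± 0.15. Fn1 (fibronectin), Dcn (decorin), Bgn (biglycan), Col8a1, Col6a3 and the metalloproteinase Mmp14 had slopes of 0.21 to 0.35. Col1a2, the partner chain of Col1a1, had 0.04 ± 0.08 on its probe set. Col15a1 had a steep but uncertain slope of 0.60 ± 0.28, with 36.0 in replicate 1 and 142 to 423 elsewhere. Of the inhibitor genes, Timp2 (-0.28) and Timp3 (-0.20) had negative slopes and Timp1 a positive one (0.05).

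The count of matrix genes depends on the arrays and scaling. Scaling to a common median gave 24 of 33 positive slopes (39.0% over all probe sets) and 7 with an unadjusted limma p under 0.05. Leaving out replicate 3 or 4, the arrays with the most Nppa, gave 6 and 7 in place of 12, and leaving out replicate 2 gave 17. Without replicates 6 and 7 the count was 9 of 33 against 12.1% of all probe sets, and with the Gapdh ratio in the model 11 of 33 against 11.4%. In the wild type arrays 26 of 33 matrix slopes were positive, against 59.4% of all probe sets. All 11 genes that had passed on the positive side in hypertrophy were among these 26. Fibroblast markers other than matrix genes had 5 of 8 positive slopes, near the 66.3% of all first-type probe sets. Mfap5, a microfibril protein, followed Nppa with 0.41 ± 0.10, while Vim (vimentin) had -0.05 ± 0.13 and Gsn (gelsolin) 0.04 ± 0.13. The part of fibroblast number in these values was not tested.

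**Figure D4:**
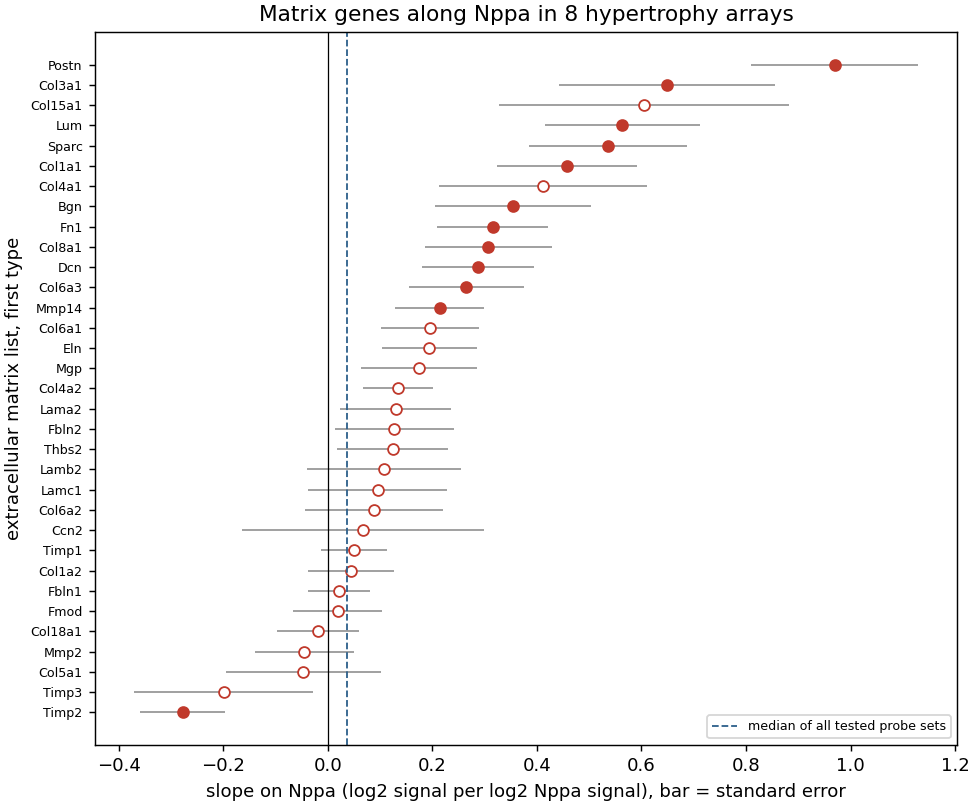
Slope on Nppa (x axis, log2 signal per log2 Nppa signal) with its standard error for the 33 extracellular matrix genes of the first array type over the 8 hypertrophy arrays; filled points have an unadjusted limma p under 0.05, and the dashed line is the median over all tested probe sets (0.037). Of the 33 genes 28 lie right of 0, with Postn farthest at 0.97, and Timp2 lies lowest at -0.28.

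Genes of fatty acid oxidation had 3 of 24 positive slopes and a median of -0.13, against 66.3% positive and 0.037 over all probe sets of the first type. An unadjusted limma p under 0.05 was reached by 2 of 24, Acaa2 (-0.22) and Acads (0.14), against 4.03%, and none was called. The same list had 3 of 24 positive slopes on the Gapdh ratio, which took a median of 29.4% of the variance of its genes, against 12.9% for Nppa. Over all first-type probe sets 34.6% of slopes on the Gapdh ratio were positive, and the median shares were 18.0% (Gapdh) and 7.63% (Nppa). Genes of the tricarboxylic acid cycle had 2 of 21 positive slopes on the Gapdh ratio and a median share of 31.5%. The part of the ratio in the slopes on Nppa was not tested for the fatty acid oxidation list. Decr1, a dienoyl-CoA reductase, had -0.31 ± 0.18. Respiratory chain genes had 35 of 65 positive slopes (median 0.0038), a smaller share than the 66.3% of all probe sets. Among clock genes Nr1d1, the repressor REV-ERB alpha, read 261, 190, 383, 371, 510, 217, 201 and 275, with a slope of 0.39 ± 0.12, and -0.19 ± 0.15 in wild type. Skeletal muscle markers had 5 of 9 positive slopes, against the same 66.3%, and a median of 0.04. Among them Myl1, a fast myosin light chain, was at 0.49 ± 0.14 and Atp2a1, the calcium pump of fast muscle, at -0.11.

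The second array type carries no Nppa probe set, and its arrays were set against the Nppa signal of the first-type array with the same number. Whether the same RNA was on both is not stated. Deviations of same-numbered arrays had r of 0.717 to 0.962 across 43 control probe sets but -0.0052 to 0.084 across 675 genes measured on both types, features that are not independent replicates. Slopes of the second type therefore rest on the numbering. The smallest p-values belonged to Hs3st3a1, a heparan sulfate sulfotransferase (0.31 ± 0.07), and, of the opposite sign, to Atp10d and Rasl11a (-0.29 ± 0.07 and -0.26 ± 0.07). Thbs4, a matricellular thrombospondin, read 41.0, 50.3, 124, 104, 79.2, 84.6, 73.4 and 108, a slope of 0.45 ± 0.12. Dnm1l, the dynamin of mitochondrial fission, read 91.1 and 88.8 in replicates 3 and 4 and 227 to 531 elsewhere (slope -0.82 ± 0.22).

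The control ratios went with part of the variation. A straight line on the log2 Gapdh ratio took 27.5% ± 5.75 (jackknife SE over arrays) of the summed squares with the first type and 28.7% ± 5.89 with the second. The Actb ratio took 33.9% ± 9.62 and 29.9% ± 9.56. Both ratios together took 43.8% ± 9.38 and 43.0% ± 8.58. An unrelated covariate would take 14.3% on average over 8 arrays, and a pair of them 28.6%. By these estimates more than 50% of the summed squares remained outside a straight line on both ratios, but the 50% mark lies within 1 SE. Without 1 array the first type gave 41.6% to 53.4%. For a single probe set the median share was 18.0% (Gapdh) and 23.5% (Actb) on the first type.

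**Figure D5:**
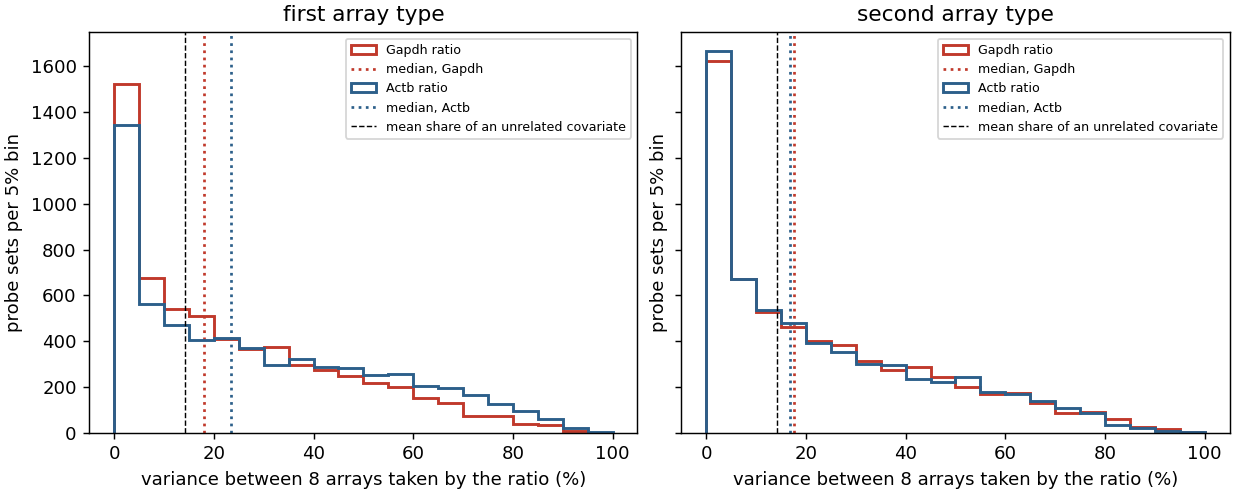
Distribution over probe sets (y axis, probe sets per 5% bin) of the share of variance between the 8 hypertrophy arrays taken by the log2 Gapdh (red) or Actb (blue) ratio (x axis, percent), by array type; dotted lines are medians and the dashed line is the mean share of an unrelated covariate, 14.3%. Most probe sets lie at low shares, with medians of 18.0% (Gapdh) and 23.5% (Actb) on the first type.

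The main axis of variation followed the ratios on the second array type. Its first principal component held 35.8% of the variance and had r = 0.85 with the Gapdh ratio (rho 0.90, exact permutation p = 0.000422, adjusted p = 0.00506; r = 0.86 without replicates 6 and 7 on the same axis, 0.45 when the component was recomputed without them). It had r = 0.88 with the Actb ratio (rho 0.93, exact permutation p = 0.00489, adjusted p = 0.0208), 0.66 without replicates 1 and 7 and 0.30 when recomputed without 6 and 7. On the first type the first component held 41.3% and followed the array median most closely (r = -0.95, rho -0.88, exact permutation p = 0.000595, adjusted p = 0.00506; -0.88 without replicates 1 and 7). Leaving out replicate 1 and recomputing the component gave -0.58. With the Actb ratio r was 0.83 there (rho 0.76, exact permutation p = 0.0160, adjusted p = 0.0544), and 0.44 without replicates 1 and 7. With the Gapdh ratio r was 0.70 (exact permutation adjusted p = 0.319). After scaling to a common median the first component of the first type had r = 0.78 with the Gapdh ratio and 0.93 with the Actb ratio. Both passed the threshold then, so the contrast between the types depends on the scaling.

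In limma, 11 of 6136 probe sets of the first type (0.179%) changed with the Gapdh ratio, 10 of them higher with a higher ratio (0.163%) and 1 lower (0.0163%). The second type had 40 of 6134 (0.652%), 34 higher (0.554%) and 6 lower (0.0978%). H2-M1, a nonclassical MHC class I gene, had a slope of 0.79 ± 0.07 per log2 unit of the ratio (limma adjusted p = 0.00342). Its signals were 1105, 1282, 1286, 903, 1036, 383, 111 and 1099. En1, a homeobox gene, was called with 0.61 ± 0.06 (limma adjusted p = 0.00342), but only replicate 7 was low, at 8.97 against 201 to 287. Arnt, the partner of hypoxia-inducible factors, and Rabac1, a Rab binding protein, were likewise low in replicate 7 (63.4 and 228), though another Arnt probe set of the first type had an SD of 0.30. Zbtb7b, a zinc finger factor called with the second type, read 401 in replicate 6 and 160 in replicate 7 against 472 to 773 elsewhere (0.43 ± 0.05, limma adjusted p = 0.00838). Nrip1, a nuclear receptor corepressor, was at 1 in replicate 7, and another Nrip1 probe set had an SD of 0.27. Tns1 (0.76 ± 0.13, limma adjusted p = 0.0400), Xirp2 (0.66 ± 0.12, adjusted p = 0.0421) and Slc25a5 on the first type (0.64 ± 0.09, adjusted p = 0.0309), described above for their SD, were called too. Without replicates 6 and 7 there were 0 and 2 calls, and none of these genes was called.

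The Actb ratio drew 217 calls on the first type (3.54%), 44 higher (0.717%) and 173 lower (2.82%) with a higher ratio, and 1 on the second, which was lower (0.0163%). The split turned with scaling: 168 higher and 109 lower after scaling to a common median, and 126 and 129 after quantile normalization. Tpm3, a slow tropomyosin, read 1322, 1334, 918, 675, 847, 640, 248 and 1264, with a slope of 1.64 ± 0.20 (limma adjusted p = 0.0289), while another Tpm3 probe set had an SD of 0.13. Eef2, the translation elongation factor, read 1293, 1637, 1319, 729, 940, 542, 307 and 1356, a slope of 1.66 ± 0.21. Eif1a, an initiation factor, went the opposite way, with 64.8, 88.0, 129, 192, 165, 221, 315 and 140 and a slope of -1.47 ± 0.20. Spin1, a histone reader, had -1.02 ± 0.14, and its other probe set an SD of 0.19. Of the cell type markers, Vim was called with 0.75 ± 0.14 and the endothelial sialomucin Emcn with -1.05 ± 0.19 (limma adjusted p = 0.0348 each), and the lists held 1 further call among 9 adipocyte markers (higher) and 1 among 17 macrophage and leukocyte markers (lower). The glucose transporter gene Slc2a4 had 0.95 ± 0.19 (limma adjusted p = 0.0430) and Dld, of the pyruvate dehydrogenase complex, -0.94 ± 0.20 (limma adjusted p = 0.0432). On the first type no call remained without replicates 6 and 7, nor without any of replicates 2, 4, 5, 7 or 8 alone, while leaving out replicate 3 gave 560. The second type had 0 calls without replicates 6 and 7 and 0 to 100 without 1 array. Of the 11 probe sets of the first type called for the Gapdh ratio, 7 were also called for the Actb ratio, against 3.54% of all probe sets.

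Probe sets of 1 gene could lie on either side of this axis. A probe set of Mbnl2, a splicing regulator of muscle, read 137, 200, 209, 135, 133, 85.5, 16.2 and 212 on the second type, a slope on Gapdh of 0.58 ± 0.07 (limma adjusted p = 0.00838). Another read 355, 514, 567, 718, 539, 817, 1201 and 500, a slope of -0.29 ± 0.06 (limma adjusted p = 0.0625). Replicate 7 was thus the lowest array for one and the highest for the other. The glucocorticoid receptor gene Nr3c1 read 71.7 in replicate 1, which had the highest Actb ratio, and 281 in replicate 7, which had the lowest, without being called (slope -1.19 ± 0.19, limma adjusted p = 0.0614).

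For the 8 positive followers of Nppa on the first type, the Gapdh ratio took at most 18.4% of the variance (Col14a1) and the Actb ratio at most 14.6% (Fam83h). For the matrix list the median share was 11.7% (Gapdh) and 12.5% (Actb), and that of Nppa 32.3%. Of the 8 followers and the 35 matrix genes 0 were called for either ratio, and since 0.179% (Gapdh) and 3.54% (Actb) of all first-type probe sets were called, a count of 0 in lists of this size is near the background.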

How the data were processed

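Ventricle RNA was measured on 32 arrays of 2 Affymetrix types. The authors deposited 1 linear intensity per probe set, whose summarisation and scaling are not given in the sources used here. Groups came from the titles. Signals below the 20th percentile of a type were raised to it and log2 was taken; non-control probe sets whose hypertrophy mean exceeded the array median were kept. The number of arrays limits the precision.

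Slopes on log2 Nppa and on the log2 5′ to 3′ ratios were fitted with limma 3.58.1 in R 4.3.3, with Benjamini-Hochberg adjustment over all probe sets of a type. Spreads per array and correlations were tested by exact permutation in Python 3.11.15 with numpy 2.4.6, scipy 1.17.1 and pandas 2.3.3; figures used matplotlib 3.10.9. Simulated arrays, in which 200 probe sets had a known slope, served to check the fit.

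Members and gene lists were chosen with earlier results of these data known. Genes were named as follows: the 15 probe sets of largest SD per type; the 8 (first type) or 5 (second type) of smallest p on Nppa in each direction; the 4 of smallest p per ratio and type; a set of cardiac genes; and up to 3 members of largest SD per list of 25, besides the members of the matrix list. Predicted genes were skipped. Other probe sets of a named gene, and matrix genes and other list members outside the rule, were chosen after their values were seen. Replicate numbers are shared between groups, but nothing in the labels says that a number pairs samples.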

Additional observations from a re-analysis of the deposited data

Results flagged for a closer look

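Among 107 measures of the 8 hypertrophy arrays, 16 (14.95%) had 1 array far from the others, where its gap to the nearest array, as a share of the whole range, exceeded Dixon's 95% limit; chance gives about 1 in 20. In all 16 the array was the lowest, and it was replicate 7 in 10, replicate 6 in 4 and replicates 1 and 5 in 1 each. Many of these measures had been named for a large SD or for a slope on the ratios, which favours such arrays.

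Replicate 7 was the far array for the log2 Gapdh ratio on both types, with gaps of 0.727 (first) and 0.661 (second) of the range. It was also the far array for the log2 signal of En1 (0.821), Arnt (0.716), Tpm3 (0.564) and Rabac1 (0.53) on the first type. On the second type the same held for Rundc3b (0.757), Nrip1 (0.756), Zbtb7b (0.585) and Mbnl2 (0.556). Replicate 6 was the far array for Nrep (0.765), Proc (0.733) and Cyct, the testis cytochrome c (0.64), on the first type and for Gpc1 (0.744) on the second. Col15a1 had replicate 1 as the far array (0.54) and Bcl11b replicate 5 (0.863).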

How the results depend on the processing

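Calls for the control ratios rested on few arrays. Without replicates 6 and 7 the Gapdh ratio gave 0 calls (first type) and 2 (second), and the Actb ratio 0 and 0, against 11, 40, 217 and 1; the Gapdh slopes of Arnt, Mbnl2 and Rundc3b became -0.028, -0.09 and -0.52. Leaving out 1 array gave 4 to 28 and 2 to 39 calls for Gapdh (2 without replicate 7) and 0 to 560 and 0 to 100 for Actb (560 without replicate 3, 100 without replicate 4). Gapdh calls on the first type were 25 with the linear ratio, 28 with median scaling and 39 with quantile scaling. The second type gave 117, 93 and 77, 7 with the 40th percentile floor and 22 with the 3-array filter. Actb calls on the second type were 78, 76, 77 and, with that filter, 0.

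The spread per array differed on the first type by 0.0906 (median scaling), 0.0879 (quantile scaling), 0.0960 (40th percentile floor) and 0.0764 (without replicates 6 and 7), each past the threshold, and by 0.0731 to 0.125 without 1 array (past it without hypertrophy replicate 3, 4, 5, 7 or 8, or wild type replicate 2). The spread per probe set called 1 on the first type with no floor, with a smaller spread in hypertrophy. On the second type the 1 call with no floor also had a smaller spread in hypertrophy, whereas the 1 call of the main fit had a larger one. For the second type the test called 0 with the 40th percentile floor, 4 without replicates 6 and 7, 0 to 2 without 1 array, and 0 with the replicate number as a replicate block (0 on the first type too). Of the 15 probe sets of largest SD, 6 and 9 stayed by median absolute deviation, 6 and 7 without replicates 6 and 7, 10 to 14 and 12 to 14 without 1 array, and on the first type 9 with the 40th percentile floor and 9 without each probe set's farthest array. Both ratios took 41.6% to 53.4% on the first type without 1 array, the highest without replicate 3.

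Slopes on Nppa near 0 changed sign. Myl4 had -0.15 (median scaling), -0.16 (quantile scaling) and -0.44 to 0.46 without 1 array, Acta1 -0.053 to 0.69, Myh7 -0.11 to 0.039 and Myh6 -0.069 to 0.039. With both ratios in the model Myh6 had 0.028, Myl7 0.16 and Agtr1a -0.034, and Atp2a2 had -0.0083 with median scaling. Matrix genes with an unadjusted p under 0.05 numbered 7 with both ratios, 7 with median scaling and 6 to 17 without 1 array.

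Correlations moved as well. Nppa and the Gapdh ratio had r of -0.45 without replicates 6 and 7 and -0.088 to 0.448 without 1 array. Nppa and the Actb ratio had 0.082 (median scaling), 0.052 (quantile scaling) and -0.465 to 0.196. Nppa had -0.624 to 0.012 with the first component. With the second it had 0.082, 0.068, 0.029 (no floor), 0.016 (40th percentile floor), 0.665 (without replicates 6 and 7) and -0.353 to 0.395. The first component of the first type had 0.781 and 0.805 with Gapdh and 0.929 and 0.936 with Actb (median and quantile scaling). Under the higher floor it had 0.846 with Actb, and all of these values passed the threshold. Without 1 array the first component of that type had 0.259 to 0.797 (Gapdh) and 0.531 to 0.938 (Actb). With the array median it had -0.966 to -0.585 (below the threshold without replicate 1). Its second component had -0.808 to 0.537 (Gapdh), -0.742 to 0.245 (Actb) and -0.447 to 0.130 (array median, 0.263 without replicates 6 and 7). On the second type, without replicates 6 and 7, the first component had 0.449, 0.300 and -0.994 with Gapdh, Actb and the array median, and the second -0.740, -0.770 and -0.105. Without 1 array these were 0.790 to 0.882, 0.683 to 0.968, -0.652 to 0.166, -0.174 to 0.548 and, for the second component and the array median, -0.960 to -0.716. The cause was not tested for any of these. Of the 598 values recomputed for the main comparisons, 470 kept their direction and side of the threshold or, as counts or untested values, stayed close. Same-numbered hypertrophy and wild type arrays deviated with r of -0.136 to 0.373 (first type, 2 of 5 best with their own number) and -0.186 to 0.0238 (second, 0 of 5). These correlations cannot tell whether such arrays share more than a number, such as a processing step. The replicate block was run for the spread per probe set.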
